A study of Homo sapiens with 9 samples.

Results

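The proteasome was examined through 44 of the 17911 genes in a table of RNA-seq read counts from 9 libraries labelled MDA-MB-231. The genes were taken by symbol, PSM followed by a letter from A to G and a number, without pseudogenes and without PSMB8 and PSMB9, the interferon-induced catalytic subunits. They comprise 7 alpha ring and 8 beta ring genes of the core particle, 6 base ATPases and 11 non-ATPase subunits of the regulatory particle, and 3 chaperones that assemble the base. The remaining members are 4 activators that cap the core in place of the regulatory particle, the inhibitor PSMF1 and 4 chaperones that assemble the core. All 44 passed the filter on low counts, which kept 16985 genes for testing. PSMA8 and PSMB11, tissue-restricted variants of the alpha and beta rings, have no row in the table.

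The proteasome is the main protease for proteins tagged with ubiquitin. Its core is a barrel of stacked alpha and beta rings with the catalytic sites inside, and the regulatory particle at its ends binds the ubiquitin chain, removes it, unfolds the substrate and threads it through the gate of the alpha ring. The subunits are made in fixed proportions, and in mammalian cells the transcription factor NFE2L1 (NRF1) raises many of their genes together when proteasome activity is low, through antioxidant response elements in their promoters. Cancer cells carry a high load of misfolded protein, and proteasome inhibitors are in clinical use.

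The labels describe 3 small and 3 large liquid overlay spheroids and 3 capsules, all of the wild-type (WT) cell line MDA-MB-231, an established line from a triple-negative breast cancer grown in RPMI with 10% fetal bovine serum. One treatment description is repeated for every sample, capsule samples included: liquid overlay, 5% Matrigel, trastuzumab (an antibody against the receptor ERBB2) and 96 h of incubation, so the groups compared here have no arm without trastuzumab or Matrigel. The 3 capsule columns were matched by name. The 6 other columns form 2 sets of 3, headed L.O and Sph.WT, and neither name gives a spheroid size, so the 6 were tested as 1 spheroid group and the 2 sets were also compared with the capsules and with each other. Nothing in the labels says that libraries of a group came from separate cultures, and p-values then measure only the spread between these libraries, which may be technical.

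The 2 sets of spheroid columns stood far apart, and the capsule and L.O columns went against their cell line label. Totals ran from 13212665 to 33263076 counts. The summed level of 9 genes abundant in MDA-MB-231 (VIM, CD44, CAV1, CAV2, ANXA1, AXL, S100A4, LGALS1 and TGFBI) was 387 to 391 CPM (counts per 1e+06 counts, scaled by TMM) in the capsule libraries and 559 to 628 CPM in the L.O libraries, but 5792 to 6079 CPM in the Sph.WT libraries, where all 9 exceeded 20 CPM. CDKN2A, a gene lost from the MDA-MB-231 genome, stood at 451 to 537 CPM in the capsule libraries, 415 to 604 CPM in L.O and 0.773 to 1.02 CPM in Sph.WT. Genes known from HEK293, an embryonic kidney line (NEFM, NEFL, CKB, LIN28B and PAX2), summed to 1859 to 2039, 1570 to 1677 and 34.2 to 37.5 CPM in the same order, with NEFL and PAX2 at 0 in all Sph.WT libraries. Of the immune, endothelial and fibroblast markers, PTPRC, CD3E, LYZ, CDH5 and DCN have no row, and the rest summed to at most 121, 12.6 and 237 CPM in any library. In comparisons with Sph.WT, culture format, column set and cell background cannot be told apart, so the capsule and L.O columns, which are closer to each other in these markers, are compared first below. Culture format and column set coincide in that comparison as well. The summed level of the 9 MDA-MB-231 genes was higher in L.O than in the capsules without overlap, so cell background cannot be told apart there either.

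The proteasome genes as a group were highest in the capsule libraries. Their summed level was 6456 ± 157 CPM (SD, n = 3) in the capsule libraries, 5229 ± 149 CPM in L.O and 5998 ± 135 CPM in Sph.WT. As a share of all counts, which does not use the TMM factors, they took 0.670% ± 0.0095, 0.602% ± 0.0155 and 0.501% ± 0.0142, so the capsule set led on both scales while L.O and Sph.WT changed places. In these bulk libraries fewer cells of a type and less RNA per cell cannot be told apart. Scaling by library totals moved the median log2 fold change of all genes from -0.02 to -0.17 for capsule minus L.O, from 0.03 to 0.35 for capsule minus Sph.WT and from 0.01 to -0.45 for Sph.WT minus L.O. A change of scaling shifts all genes by about the same amount, so the distance of the proteasome median from the median of all genes is fixed by construction and is no sign of stability. Under TMM, DESeq2 size factors and library totals that distance was 0.32, 0.32 and 0.32 for capsule minus L.O, 0.14, 0.14 and 0.14 for capsule minus Sph.WT, and 0.12, 0.13 and 0.12 for Sph.WT minus L.O. The median for Sph.WT minus L.O itself flipped from 0.14 under TMM to -0.33 under library totals.

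**Figure D1:**
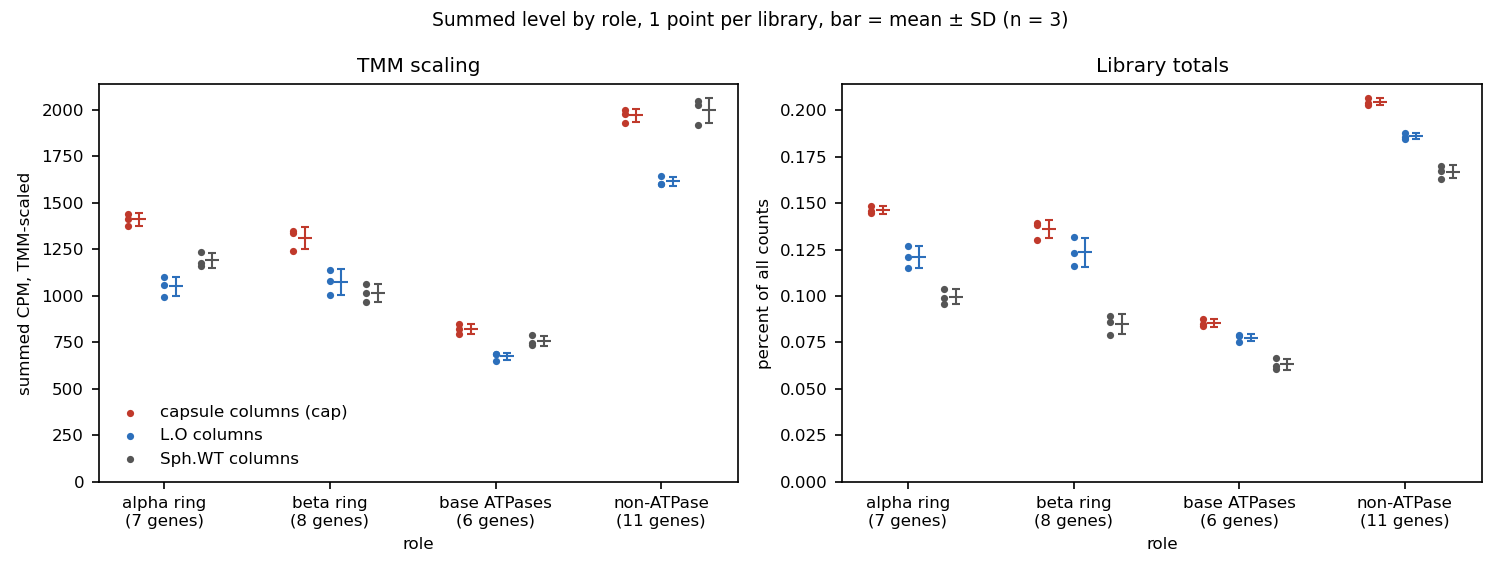
Summed level of the alpha ring, beta ring, base ATPase and non-ATPase genes in each library, as TMM-scaled CPM (left) and as percent of all counts (right), with 1 point per library and bars for the mean ± SD of the 3 libraries in a set. The capsule points lie above the L.O points in all 4 blocks on the left and in 3 of them on the right, where 1 L.O library of the beta ring (0.132%) exceeds the lowest capsule library (0.130%), whereas Sph.WT lies above L.O in the alpha ring on the left (1190.3 against 1050 CPM) and below it on the right (0.0995% against 0.121%).

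Between the capsule and L.O columns the change went 1 way. Of the 44 genes, 31 were higher in the capsule libraries and 0 were lower (edgeR quasi-likelihood test, adjusted p under 0.05), against 22.7% of all genes tested that were higher and 23.0% that were lower. At an unadjusted p under 0.05, passed by 8892 of all genes in either direction, the count of lower members was 0 as well. DESeq2 and limma-voom called 0 lower and 29 and 31 higher. The 5 members with a log2 fold change below 0 were PSMD5 (-0.27 ± 0.33, adjusted p = 0.518), PSME1, PSME2, PSMF1 and PSMG4, the last 4 at -0.10, -0.10, -0.05 and -0.02. All 32 core and regulatory particle genes had a positive log2 fold change, from 0.01 (PSMD2) to 0.78 (PSMD14), and 26 of them were called. The 3 capsule libraries lay above the 3 L.O libraries without overlap for 32 members, where 27.1% of all genes did so, and below them for 0 members, where 27.8% of all genes did so. A log2 fold change above 0 was found in 39 members and in 48.2% of all genes. Without library 2 of the L.O set, 26 members were called higher, the lowest number over the 9 fits that each left out 1 library, and 25 of the 31 calls held in every such fit. Under library totals 19 members were higher and 3 lower (PSME1, PSME2 and PSMF1), and the calls for PSMA7, PSMB2, PSMB3, PSMB7, PSMD4, PSMD8, PSMD10, PSMD12, PSMD13, PSME3, PSME4 and PSMG3 were lost, when 27.8% of the calls over all genes were for higher genes rather than 49.7%.

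The planned test of the 3 capsule columns against all 6 spheroid columns called 4 members, all higher in the capsules: PSMB5 (0.44 ± 0.09, adjusted p = 0.0439), PSMC3 (0.44 ± 0.10, adjusted p = 0.0459), PSMD7 (0.61 ± 0.08, adjusted p = 0.0162) and PSMG1 (0.55 ± 0.09, adjusted p = 0.0267). Of all genes, 2.17% were called higher and 1.34% lower in this test. At an unadjusted p under 0.05, 17 members were higher and 1 was lower, and 4826 of the 16985 genes tested passed in either direction. The log2 fold change was above 0 in 34 members and in 47.2% of all genes. PSMB5 carries the chymotrypsin-like site of the core, PSMC3 is a base ATPase, PSMD7 is a lid subunit and PSMG1 a core assembly chaperone. In each of the 4 genes all 3 capsule libraries lay above all 6 spheroid libraries, which adds no support because the same libraries gave the calls. Members that were not called, such as PSMA4, PSMB1, PSMD4 and PSMD6, showed it too, and the share of all genes was not counted. The distance between the L.O and Sph.WT sets went into the spread of this test, whose biological coefficient of variation was 0.66, against 0.0773 in the model that gave each set its own level. None of the 4 calls held in every fit that left out 1 library, and with any 1 of the 3 capsule libraries left out the test called 0 genes of any kind (2372 to 2531 at an unadjusted p under 0.05, 10 to 13 of them members). DESeq2's Wald test called 15 members higher and 1 lower, and limma-voom kept all 4 calls. Library totals in edgeR called 0 members (12 higher and 3 lower at an unadjusted p under 0.05, among 4474 genes in either direction).

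Against the Sph.WT columns the capsule libraries were higher in 23 members and lower in 12 under TMM, with 43.0% and 42.0% of all genes called in those directions. Library totals gave 31 members higher and 7 lower, with the median log2 fold change of all genes at 0.35. The capsule libraries lay above all Sph.WT libraries in 24 members and below them in 16 (43.2% and 42.3% of all genes), and 27 members had a log2 fold change above 0 (50.9% of all genes). Few of the members' differences reached 2-fold: 2 members were higher at that size (PSMA4 and PSMG3) against 27.3% of all genes, and 4 were lower (PSMD2, PSMD5, PSME1 and PSMG2) against 25.2%. The median size of the log2 fold change, regardless of sign, was 0.44 for the members and 1.08 for all genes. Sph.WT exceeded L.O in 20 members and was below it in 11 (43.1% and 42.4% of all genes) under TMM, a balance that library totals turned round, to 11 higher and 27 lower. All Sph.WT libraries were above all L.O libraries in 22 members and below them in 10 (43.2% and 42.6% of all genes), and 28 members had a log2 fold change above 0 (50.3% of all genes). At 2-fold or more, 8 members were higher in Sph.WT than in L.O (25.0% of all genes) and 1, PSMG3, was lower (27.2%), and the median size was 0.33 for the members and 1.07 for all genes. These 3 contrasts share libraries in pairs, so their values are set side by side only.

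**Figure D2:**
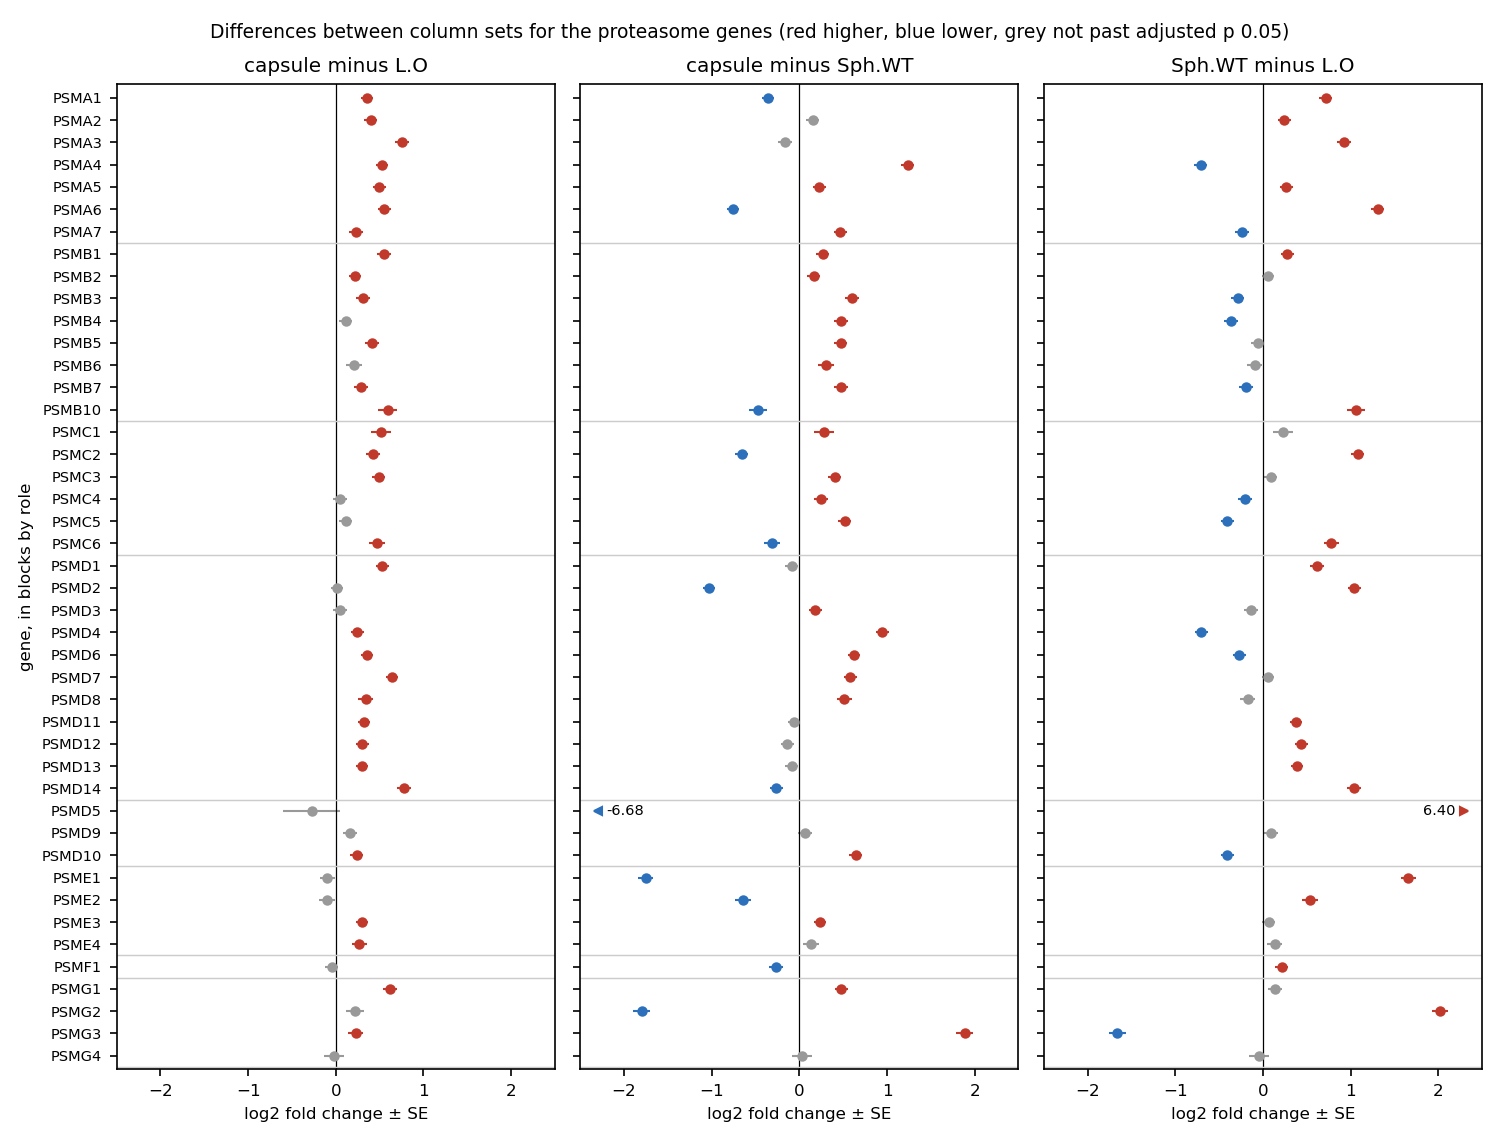
Log2 fold change ± SE of each of the 44 genes, in blocks by role, for capsule minus L.O, capsule minus Sph.WT and Sph.WT minus L.O under TMM scaling; triangles mark PSMD5, which lies off the axis at -6.68 and 6.40. The left panel holds 31 red points and no blue one, and the other 2 panels hold red and blue points in most blocks.

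The alpha ring, which forms the outer faces of the core and gates the entry of substrates, was higher in the capsule libraries than in L.O in all 7 of its genes, PSMA1 to PSMA7, without overlap between libraries. PSMA3 had 100.4, 89.5 and 96.6 CPM in the capsule libraries, 54.1, 54.1 and 61.3 in L.O and 106, 113 and 102 in Sph.WT. The capsule and Sph.WT libraries were thus close for PSMA3 and the L.O libraries low, with a log2 fold change of 0.76 ± 0.08 (SE; adjusted p = 1.62e-08) against L.O. PSMA4 had 362, 343 and 364 CPM in the capsule libraries, 249, 237 and 257 in L.O and 159.6, 141 and 154 in Sph.WT. Here the order was capsule, L.O, Sph.WT with no overlap, at 0.52 ± 0.07 (SE; adjusted p = 8.47e-07) against L.O and 1.24 ± 0.07 (SE; adjusted p = 6.42e-16) against Sph.WT. PSMA6 had 122, 120.2 and 123 CPM in the capsule libraries, 85.8, 78.7 and 84.8 in L.O and 213, 209 and 196 in Sph.WT. The 2 genes thus took opposite positions in Sph.WT relative to L.O, PSMA6 at 1.31 ± 0.07 (SE; adjusted p = 1.67e-16) and PSMA4 at -0.71 ± 0.07 (SE; adjusted p = 2.17e-10). PSMA7, the most abundant alpha gene per length, differed least between capsule and L.O (0.23 ± 0.08, adjusted p = 0.0164), and its lowest capsule library (337 CPM) was barely above its highest L.O library (336 CPM). Against Sph.WT the ring was split: PSMA4, PSMA5 and PSMA7 were higher in the capsules, PSMA1 and PSMA6 lower, and PSMA2 and PSMA3 were not called. Under library totals the call for PSMA1 was lost (-0.05, adjusted p = 0.522) and PSMA2 was called higher (0.47, adjusted p = 1.79e-06). PSMA6 shares 24.6% of its 50-base windows with 3 copies elsewhere in the genome, chiefly the pseudogene PSMA6P1, so its reads could be divided between loci.

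The beta ring holds the catalytic sites, in PSMB5 (chymotrypsin-like), PSMB6 (caspase-like) and PSMB7 (trypsin-like). Against L.O 6 of its 8 genes were higher in the capsule libraries, and PSMB4 (0.11 ± 0.08, adjusted p = 0.241) and PSMB6 (0.21 ± 0.09, adjusted p = 0.0637) did not pass the test. PSMB5 had 185, 192 and 167 CPM in the capsule libraries, 137, 131 and 141 in L.O and 139, 127 and 127 in Sph.WT. All 3 capsule libraries lay above the 6 others, which overlapped, at 0.41 ± 0.07 (SE; adjusted p = 5.13e-05) against L.O and 0.47 ± 0.08 (SE; adjusted p = 1.31e-06) against Sph.WT. PSMB7 differed by 0.29 ± 0.08 (SE; adjusted p = 0.00355) and 0.48 ± 0.08 (SE; adjusted p = 2.45e-06) in the same 2 comparisons. PSMB1, a structural beta subunit, had 189, 185 and 175 CPM in the capsule libraries, 132, 116 and 128 in L.O and 148, 147 and 161 in Sph.WT, and its difference from L.O was the largest of the constitutive beta genes (0.55 ± 0.07, adjusted p = 8.28e-07). PSMB10, which replaces PSMB7 in the immunoproteasome, was the exception in the ring. It had 24.6, 26.5 and 22.5 CPM in the capsule libraries, 17.2, 16.2 and 15.5 in L.O and 38.0, 33.1 and 31.0 in Sph.WT. Its order was Sph.WT, capsule, L.O with no overlap, at 1.06 ± 0.10 (SE; adjusted p = 7.24e-11) for Sph.WT minus L.O and -0.47 ± 0.10 (SE; adjusted p = 8.83e-05) for capsule minus Sph.WT, where the other 7 beta genes were higher in the capsules. Under library totals PSMB10 was not called for capsule minus Sph.WT (-0.16, adjusted p = 0.134).

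The 6 base ATPases, PSMC1 to PSMC6, form the ring that unfolds substrates. Against L.O 4 of them were higher in the capsule libraries (PSMC1, PSMC2, PSMC3 and PSMC6), and PSMC4 (0.04 ± 0.08, adjusted p = 0.67) and PSMC5 (0.11 ± 0.07, adjusted p = 0.202), which pair with each other in the ring, did not pass the test. PSMC3 had 262, 263 and 248 CPM in the capsule libraries, 187, 182 and 182 in L.O and 212, 179 and 194 in Sph.WT. Its capsule libraries were above all others, and its L.O and Sph.WT libraries overlapped. PSMC2 had 139, 144 and 143 CPM in the capsule libraries, 109.7, 94.8 and 113 in L.O and 219.6, 227 and 225 in Sph.WT. Sph.WT was highest and L.O lowest for PSMC2, without overlap, at 1.08 ± 0.07 (SE; adjusted p = 3.62e-14) between them. PSMC6 followed the same order, at 0.47 ± 0.09 (SE; adjusted p = 0.000126) for capsule minus L.O and -0.31 ± 0.09 (SE; adjusted p = 0.00242) for capsule minus Sph.WT, a difference that turned to 0.0056 under library totals, and the 4 other ATPase genes were higher in the capsules than in Sph.WT. PSMC6 shares 24.7% of its 50-base windows with 3 other loci and PSMC1 shares 29.4%.

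Among the 11 non-ATPase subunits, 9 were higher in the capsule libraries than in L.O. PSMD14 is the metalloprotease that cleaves the ubiquitin chain off the substrate, and PSMD7 is its partner in the lid. PSMD14 had 118, 108 and 114 CPM in the capsule libraries, 72.2, 61.4 and 64.6 in L.O and 136, 136 and 135 in Sph.WT. Its difference between capsule and L.O was the largest of all 44 genes (0.78 ± 0.08, adjusted p = 5.43e-09). PSMD7 had 144, 138 and 144 CPM in the capsule libraries, 94.1, 89.8 and 89.0 in L.O and 92.8, 97.6 and 93.6 in Sph.WT. For PSMD7 the L.O and Sph.WT libraries overlapped below the capsule libraries, at 0.64 ± 0.07 (SE; adjusted p = 4.13e-08) and 0.58 ± 0.07 (SE; adjusted p = 1.32e-08). PSMD4, a ubiquitin receptor, had 256, 255 and 248 CPM in the capsule libraries, 221, 207 and 213 in L.O and 144, 125 and 125 in Sph.WT, with no overlap between any 2 sets. Its differences were 0.24 ± 0.07 (SE; adjusted p = 0.00704) against L.O and 0.95 ± 0.07 (SE; adjusted p = 5.83e-13) against Sph.WT. PSMD4 shares 22.8% of its 50-base windows with 2 copies elsewhere in the genome, chiefly PIPSL, so its reads could be divided between loci. PSMD2 and PSMD3 were the 2 that did not pass against L.O, at 0.01 ± 0.07 (SE; adjusted p = 0.919) and 0.05 ± 0.08 (SE; adjusted p = 0.637). PSMD2, a large scaffold of the base, had 278, 292 and 268 CPM in the capsule libraries, 283, 279 and 269.9 in L.O and 576, 601 and 537 in Sph.WT. Its capsule and L.O libraries overlapped and its Sph.WT libraries were high, at -1.03 ± 0.07 (SE; adjusted p = 2.9e-14) for capsule minus Sph.WT. PSMD1, PSMD11, PSMD12 and PSMD13 were higher in the capsules than in L.O by log2 fold changes of 0.53, 0.32, 0.30 and 0.30 and were not called against Sph.WT, where they lay between -0.14 and -0.06 under TMM and were called higher, at 0.23, 0.25, 0.18 and 0.23, under library totals.

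PSMD5, PSMD9 and PSMD10 bind the base ATPases during assembly and are absent from the finished particle. PSMD5 had the largest difference of any member. Its read counts were 8, 6 and 18 in the capsule libraries, 19, 14 and 17 in the L.O libraries and 1274, 2203 and 1103 in the Sph.WT libraries. These correspond to 0.757 ± 0.444, 0.923 ± 0.155 and 78.5 ± 2.45 CPM (SD, n = 3), so PSMD5 had few reads in the capsule and L.O columns, which overlapped, and many in every Sph.WT library. The log2 fold change was 6.40 ± 0.16 (SE; adjusted p = 2.3e-25) for Sph.WT minus L.O and -6.68 ± 0.17 (SE; adjusted p = 5.81e-25) for capsule minus Sph.WT. PSMD5 lies on the minus strand of chromosome 9 (GRCh38, chr9:120816053-120842922). CUTALP, a noncoding gene that runs the other way from chr9:120843075-120854373, was at 0.284 ± 0.243, 0.371 ± 0.199 and 31.8 ± 1.38 CPM, low and high in the same sets as PSMD5. On the other side of PSMD5, B3GALT9 had 2.67 ± 0.783, 3.32 ± 0.208 and 3.29 ± 0.305 CPM, low in all 3 sets. Farther out, FBXW2 had 71.6 ± 2.35, 65.2 ± 0.962 and 127 ± 8.15 CPM and PHF19 had 44.9 ± 3.87, 53.4 ± 1.18 and 118 ± 3.47 CPM, and MEGF9, beyond FBXW2, had 16.1 ± 1.31, 20.3 ± 1.32 and 161 ± 14.8 CPM. On the side of PHF19, TRAF1 had 4.565 ± 0.849, 6.71 ± 0.908 and 25.1 ± 2.74 CPM. C5 had 2.14 ± 0.449, 3.00 ± 0.115 and 19.3 ± 2.69 CPM. The start of CUTALP falls inside the window from 250 bases before to 50 bases after the start of PSMD5, shown here because both genes were low in the same libraries (RefSeq, GRCh38.p14, chr9:120842873-120843172, minus strand, 5′ to 3′; 62.3% GC with 19 CG dinucleotides; capitals mark the antioxidant response element letters TGACNNNGC, at -134 from the start of PSMD5).
PSMD5: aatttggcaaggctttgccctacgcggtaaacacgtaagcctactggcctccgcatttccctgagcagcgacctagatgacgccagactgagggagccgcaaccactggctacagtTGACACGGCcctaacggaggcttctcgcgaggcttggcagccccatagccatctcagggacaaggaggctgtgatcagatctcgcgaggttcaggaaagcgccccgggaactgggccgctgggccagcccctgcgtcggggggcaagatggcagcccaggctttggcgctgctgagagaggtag
The element sits once in this window, which holds no CCAAT. DNA methylation and factor binding were not analysed here. PSMD10 was higher in the capsules than in L.O (0.24 ± 0.07, adjusted p = 0.01), and PSMD9 was not called in any of the 3 contrasts under TMM (0.16 ± 0.08, adjusted p = 0.0934 against L.O). Under library totals PSMD9 was called for capsule minus Sph.WT (0.38, adjusted p = 6.16e-05) and for Sph.WT minus L.O (-0.37, adjusted p = 8.38e-05).

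**Figure D3:**
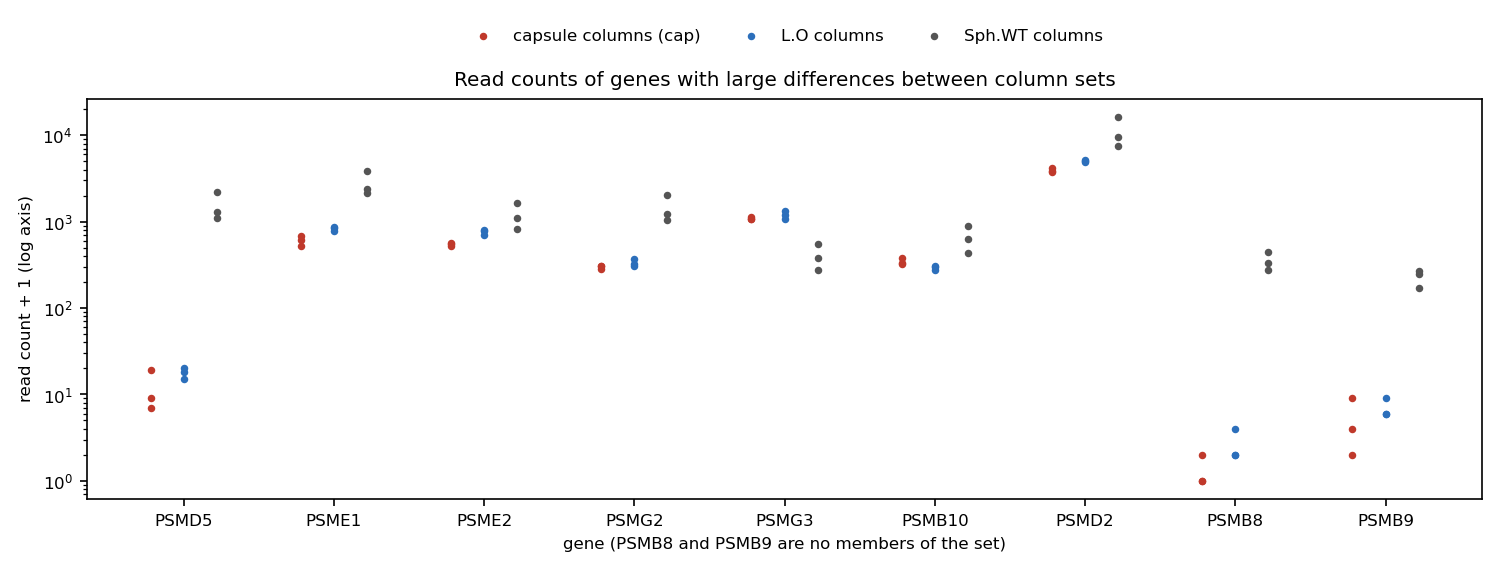
Read counts plus 1 on a log axis, unscaled, for 7 of the 44 genes and for PSMB8 and PSMB9, with 1 point per library coloured by column set. PSMD5, PSMB8 and PSMB9 have at most 19 reads in any capsule or L.O library and at least 169 in every Sph.WT library, while PSMG3 is the only 1 of the 9 genes with its Sph.WT points at the bottom.

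The activators open the core without ATP. PSME1 and PSME2 are interferon-inducible and build 1 mixed ring, PSME3 acts in the nucleus and PSME4 on chromatin. PSME1 had 38.5, 42.9 and 48.0 CPM in the capsule libraries, 43.5, 47.3 and 47.4 in L.O and 142, 142 and 153 in Sph.WT. The capsule and L.O libraries overlapped (-0.10 ± 0.09, adjusted p = 0.386), and the Sph.WT libraries were high, at 1.66 ± 0.08 (SE; adjusted p = 1.4e-17) against L.O. PSME2 had 42.0, 39.2 and 36.8 CPM in the capsule libraries, 44.0, 37.5 and 45.1 in L.O and 65.4, 60.2 and 58.3 in Sph.WT. Its Sph.WT libraries were also above the others under TMM, at 0.54 ± 0.09 (SE; adjusted p = 1.62e-06) against L.O, but library totals gave 0.08 (adjusted p = 0.404) and no call. PSME2 shares 10.85% of its 50-base windows with 4 copies elsewhere in the genome, chiefly PSME2P2. PSME3 and PSME4 differed in the other comparison, with 0.30 ± 0.07 (SE; adjusted p = 0.000849) and 0.27 ± 0.09 (SE; adjusted p = 0.0127) for capsule minus L.O, and were not called between Sph.WT and L.O under TMM. Library totals called both lower in Sph.WT than in L.O, at -0.40 (adjusted p = 3.8e-06) and -0.33 (adjusted p = 0.00116). PSMF1, which inhibits the core and competes with activators, had 95.5, 112 and 98.4 CPM in the capsule libraries, 102, 111 and 103 in L.O and 124, 122 and 120.4 in Sph.WT. It was not called between capsule and L.O (-0.05 ± 0.08, adjusted p = 0.638) and was lower in the capsules than in Sph.WT (-0.26 ± 0.08, adjusted p = 0.0024), where library totals gave 0.05.

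The core assembly chaperones work as 2 heterodimers, PSMG1 with PSMG2 and PSMG3 with PSMG4, that build the alpha ring. PSMG1 had 80.8, 81.8 and 74.5 CPM in the capsule libraries, 52.8, 49.3 and 52.7 in L.O and 58.5, 56.2 and 55.1 in Sph.WT. The capsule libraries stood above all others, at 0.62 ± 0.08 (SE; adjusted p = 3.15e-07) against L.O. PSMG2 had 22.4, 20.1 and 21.3 CPM in the capsule libraries, 18.0, 16.4 and 20.5 in L.O and 72.9, 74.4 and 74.6 in Sph.WT. Its capsule and L.O libraries overlapped and Sph.WT was high, at 2.02 ± 0.09 (SE; adjusted p = 1.27e-18) against L.O. PSMG3 had 82.1, 74.6 and 74.4 CPM in the capsule libraries, 59.5, 64.5 and 73.7 in L.O and 22.5, 20.4 and 19.7 in Sph.WT. PSMG3 was thus low in Sph.WT (-1.66 ± 0.09, adjusted p = 1.79e-16) and higher in the capsules than in L.O (0.23 ± 0.09, adjusted p = 0.0332), a call that was lost in some of the fits that left out 1 library. PSMG4 had 19.7, 22.7 and 19.2 CPM in the capsule libraries, 18.3, 19.9 and 24.2 in L.O and 22.3, 18.6 and 19.6 in Sph.WT, with overlap in all 3 comparisons and no call under TMM. Under library totals PSMG4 was called for capsule minus Sph.WT (0.34, adjusted p = 0.00901) and for Sph.WT minus L.O (-0.51, adjusted p = 0.000212). PSMG2 shares 14.7% of its exon bases with CEP76 on the opposite strand, which had 10.1, 9.1 and 17.2 CPM in the capsule, L.O and Sph.WT sets, and their reads cannot be told apart where they overlap unless strand was used in counting.

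Ratios of reads between genes of 1 complex or 1 chaperone dimer differed between the sets. The ratio of counts within a library does not depend on scaling, and the pairs below were picked after the values had been seen. PSMG2 over PSMG1 was 0.246 to 0.286 in the capsule libraries, 0.332 to 0.389 in L.O and 1.25 to 1.35 in Sph.WT. PSMG3 over PSMG4 was 3.29 to 4.16, 3.04 to 3.25 and 1.00 to 1.09, so that Sph.WT had the highest ratio in the first chaperone pair and the lowest in the second. PSME1 over PSME2 was 0.916 to 1.30, 0.987 to 1.26 and 2.17 to 2.62. PSMD14 over PSMD7 was 0.783 to 0.825, 0.684 to 0.767 and 1.40 to 1.46. PSMA4 over PSMA6 was 2.85 to 2.96, 2.90 to 3.03 and 0.674 to 0.782, nearly equal in capsule and L.O, although both genes were higher in the capsules. Among the ATPase pairs, PSMC4 over PSMC5 stayed within 0.589 to 0.648 in capsule and L.O and was 0.704 to 0.791 in Sph.WT, the smallest shift of the 9 pairs examined.

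The core genes were also set against the regulatory particle genes, a ratio that does not depend on scaling. The ratio of summed CPM was 0.992, 0.970 and 0.960 in the capsule libraries, 0.917, 0.886 and 0.979 in L.O and 0.816, 0.766 and 0.820 in Sph.WT. The capsule and L.O values overlapped (difference 0.0465, two-sided exact permutation test, p = 0.30, adjusted p = 0.30 over 3 comparisons). Sph.WT lay below both without overlap, by 0.173 against the capsules and 0.127 against L.O (p = 0.10 and adjusted p = 0.15 for each), where 0.10 is the smallest p that 3 against 3 libraries allow in the exact permutation test. PSMD2 alone made up 571 of 2754 CPM of the regulatory particle sum in Sph.WT. It made up 279 of 2793 CPM in the capsules and 277 of 2289 CPM in L.O. The core sum was 2204 CPM in Sph.WT and 2123 CPM in L.O. The low ratio in Sph.WT therefore leans on PSMD2 and is no trait of the core genes as a block.

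Levels of different genes were compared per kilobase of joined exons (GENCODE release 29, GRCh38), since longer transcripts collect more reads. PSMB4 and PSMA7, both core genes, ranked 1 and 2 of 44 in all 3 sets, PSMB4 with 295 ± 17.5, 273 ± 19.6 and 212 ± 16.5 CPM per kb in capsule, L.O and Sph.WT and PSMA7 with 239 ± 23.6, 203 ± 11.3 and 173 ± 12.9 CPM per kb. Within each set the libraries of the 2 genes did not overlap, but with the length of the APPRIS principal transcript in place of the joined exons PSMA7 ranked 1 in all 3 sets. The 14 constitutive core genes ranged from 38.4 (PSMB2) to 295 (PSMB4) CPM per kb in the capsule libraries, with a coefficient of variation of 58.7%, and the same measure was 67.8% in L.O and 50.2% in Sph.WT. The 17 regulatory particle genes had coefficients of 64.5%, 68.3% and 57.0%. The highest core gene was thus 7.67, 9.08 and 6.53 times the lowest in the 3 sets, for subunits that enter the particle in fixed proportions. Lengths weigh on such ranks: PSME3 had 4499 bases of joined exons against 998 in its principal transcript, and its capsule rank was 23 with the first and 3 with the second. The beta ring without PSMB10 had a median of 186, 135 and 123 CPM per kb and the alpha ring 84.7, 57.8 and 86.4 CPM per kb. PSMC1 was the lowest regulatory particle gene at 5.30 ± 0.224, 3.70 ± 0.618 and 4.37 ± 0.300 CPM per kb, and 82.2% of its exon bases overlap NRDE2 on the other strand, which had 33.5, 30.3 and 28.97 CPM. How far reads of PSMC1 were set aside in that overlap was not tested. PSME2, which ranked 34, 33 and 28, stayed below PSME1 in Sph.WT, where PSME1 moved from rank 33 in the capsules to rank 9.

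**Figure D4:**
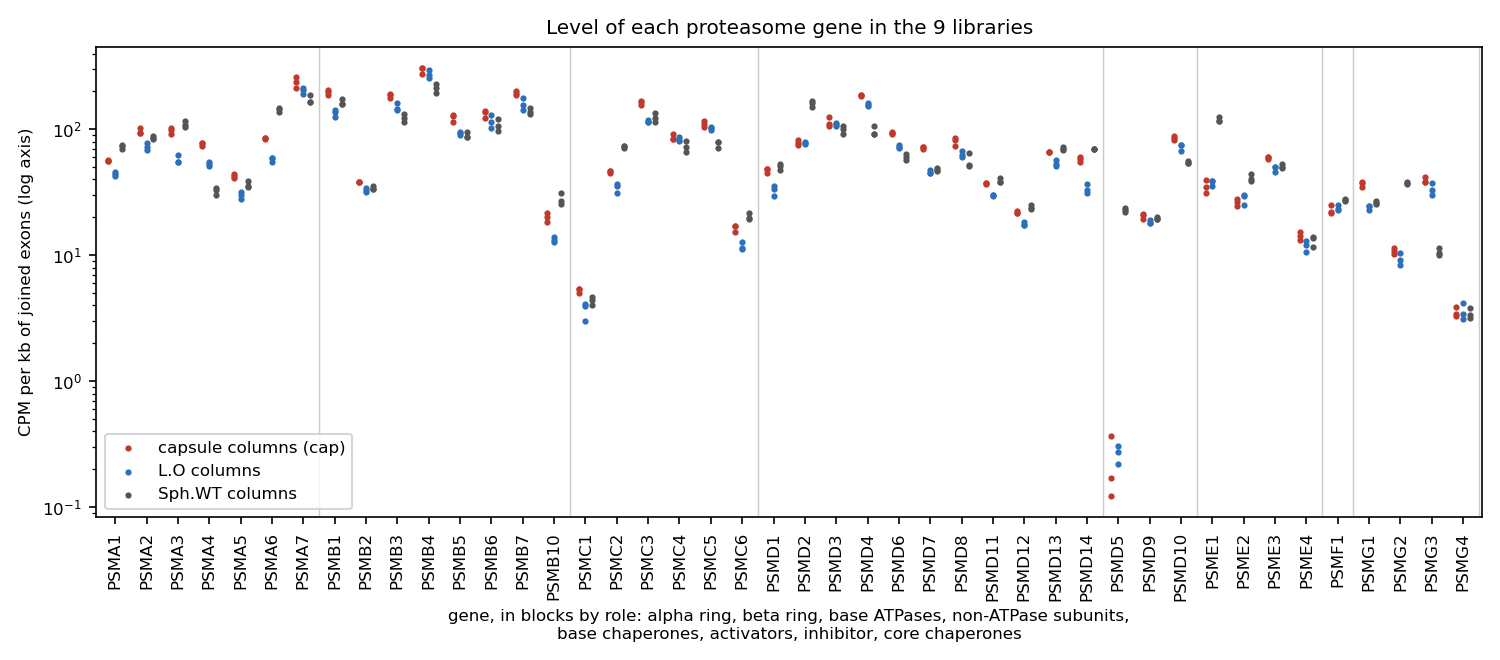
CPM per kilobase of joined exons on a log axis for the 44 genes in blocks by role, with 1 point for each of the 9 libraries coloured by set. Most genes lie between 10 and 295 CPM per kb with the 3 sets close together, and PSMD5 is the gene whose sets are farthest apart, at 0.220 and 0.268 against 22.8 CPM per kb.

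Promoter windows of the same kind were found in RefSeq for 38 of the 44 genes, leaving out PSMA7, PSMB1, PSMB6, PSMB7, PSMD4 and PSMG3. The antioxidant response element letters TGACNNNGC occurred on either strand in 12 of the 38 (31.6%), and in 13.35% of 35116 windows of the same length. CCAAT, the letters bound by NF-Y, occurred in 17 of the 38 (44.7%), and in 34.6% of all windows. A window may hold both patterns, as in PSMB3 and PSMG1, and a base may belong to both. The members' windows were also richer in CG dinucleotides (median 22 against 14), and their median GC content was 62.15% against 58.67%. Of the 17 genes with CCAAT, 15 were higher in the capsules than in L.O, with a median log2 fold change of 0.40, and of the 21 without it 11 were higher, with a median of 0.27. For TGACNNNGC the counts were 5 of 12 (median 0.19) and 21 of 26 (median 0.38). These counts are descriptions of letters in a window. The windows below belong to the members highest in the capsules over L.O with CCAAT (PSMD14 and PSMA3), and to the 2 members besides PSMD5 that were highest in Sph.WT over L.O (PSMG2 and PSME1); capitals mark either pattern on either strand, so that ATTGG is CCAAT read from the other strand (RefSeq, GRCh38.p14, 5′ to 3′ on the gene's strand).
PSMD14 (chr2:161308175-161308474, plus strand): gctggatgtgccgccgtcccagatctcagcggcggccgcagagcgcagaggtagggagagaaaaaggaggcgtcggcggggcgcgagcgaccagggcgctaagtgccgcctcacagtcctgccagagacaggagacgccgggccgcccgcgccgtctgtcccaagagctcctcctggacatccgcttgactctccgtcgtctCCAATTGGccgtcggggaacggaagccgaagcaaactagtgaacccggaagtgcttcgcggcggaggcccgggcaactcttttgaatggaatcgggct
PSMA3 (chr14:58244593-58244892, plus strand): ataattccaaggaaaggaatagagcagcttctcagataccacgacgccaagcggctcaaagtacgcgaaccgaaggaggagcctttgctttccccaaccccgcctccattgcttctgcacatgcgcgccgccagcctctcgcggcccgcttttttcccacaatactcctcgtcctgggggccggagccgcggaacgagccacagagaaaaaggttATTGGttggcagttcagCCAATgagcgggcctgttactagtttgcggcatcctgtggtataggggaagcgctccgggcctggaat
PSMG2 (chr18:12658488-12658787, plus strand): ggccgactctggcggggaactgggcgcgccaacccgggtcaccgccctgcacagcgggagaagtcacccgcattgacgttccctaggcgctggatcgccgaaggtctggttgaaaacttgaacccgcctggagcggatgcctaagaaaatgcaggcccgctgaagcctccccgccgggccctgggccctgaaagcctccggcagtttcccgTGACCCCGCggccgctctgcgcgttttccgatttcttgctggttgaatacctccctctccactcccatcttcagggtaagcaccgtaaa
PSME1 (chr14:24135944-24136243, plus strand): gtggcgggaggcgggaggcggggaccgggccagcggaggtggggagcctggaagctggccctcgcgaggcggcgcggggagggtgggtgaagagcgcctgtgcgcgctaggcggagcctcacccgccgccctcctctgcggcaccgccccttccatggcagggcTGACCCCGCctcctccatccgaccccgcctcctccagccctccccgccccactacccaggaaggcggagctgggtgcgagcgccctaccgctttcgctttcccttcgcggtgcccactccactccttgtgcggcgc
PSMD14 and PSMA3 each carry CCAAT on both strands, at -48 and -45 and at -35 and -18 from the start, and no TGACNNNGC. PSMG2 and PSME1 each carry TGACNNNGC once, at -39 and -86, and no CCAAT, and the same holds for PSMD5. These windows are picked examples and show no rule, since PSMD14 and PSMA3 were picked among members with CCAAT. PSMD14 was also higher in Sph.WT than in L.O (1.04). For Sph.WT minus L.O, 6 of 12 members with TGACNNNGC and 13 of 26 without it were higher. With CCAAT 5 of 17 were higher, and without it 14 of 21.

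The factors that work with the proteasome were followed in lists made for this comparison, whose counts are read against 22.7% of all genes higher and 23.0% lower for capsule minus L.O and 43.1% and 42.4% for Sph.WT minus L.O. Among 12 other subunits and bound factors, 6 were higher in the capsules than in L.O, 1 was lower (AKIRIN2, a nuclear import factor of the proteasome) and the median log2 fold change was 0.28, beside -0.02 for all genes. UCHL5, a deubiquitinase of the regulatory particle, was the only one called against all 6 spheroid columns, at 0.65 for capsule minus spheroid and 0.51 for capsule minus L.O. In Sph.WT against L.O 7 of the 12 were higher and 5 lower, with ECPAS (2.71), USP14 (2.23) and ZFAND5 (1.98) at the top and AKIRIN2 (-1.12) and SEM1 (-1.02) at the bottom, genes picked after their values were seen. Of 8 genes on the NFE2L1 route, 2 were higher in the capsules than in L.O (NGLY1, 0.25, and SEL1L, 0.24) and 1 was lower (SYVN1, -0.24), with a median of 0.07, counts near those shares of all genes. NFE2L1 itself had 226 CPM in the capsules, 218 CPM in L.O and 532 CPM in Sph.WT on average, at 0.05 for capsule minus L.O (adjusted p = 0.585) and 1.29 for Sph.WT minus L.O. Of the 8, 6 were higher in Sph.WT than in L.O and 1, the protease DDI2 that cleaves NFE2L1, was lower (-1.48). Among 13 genes of the VCP complex and the shuttle factors with a row (DDI1 has none), 5 were higher in the capsules than in L.O and 1 was lower (UBXN1, -0.36), with a median of 0.15. FAF1 was the only one of them called against all spheroids (0.53). Of 5 ubiquitin and E1 enzyme genes 4 were higher, and UBA1 (0.10) did not pass the test (list median 0.27).

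Other abundant complexes with fixed proportions differed between capsule and L.O as well. All 8 CCT chaperonin genes were higher in the capsules, with a median log2 fold change of 0.49, beside 0.30 for the 44 proteasome genes. CCT2 (0.95), CCT5 (0.59), CCT6A (0.58) and CCT8 (0.49) were also called against all 6 spheroid columns. In eIF3, whose subunits are related to those of the proteasome lid, 11 of 13 genes were higher (median 0.35) and EIF3F (-0.18) and EIF3G (-0.05) did not pass the test, EIF3J being called against all spheroids (0.84). In the COP9 signalosome, the other relative of the lid, 6 of 10 were higher (median 0.31) and the other 4 did not pass the test, COPS4 being called against all spheroids (0.49). For Sph.WT minus L.O the medians of the 3 complexes were -0.49, -0.45 and -0.34, on the other side of 0 from the proteasome genes at 0.14 under TMM, and whether the complexes differ from the proteasome was not tested.

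**Figure D5:**
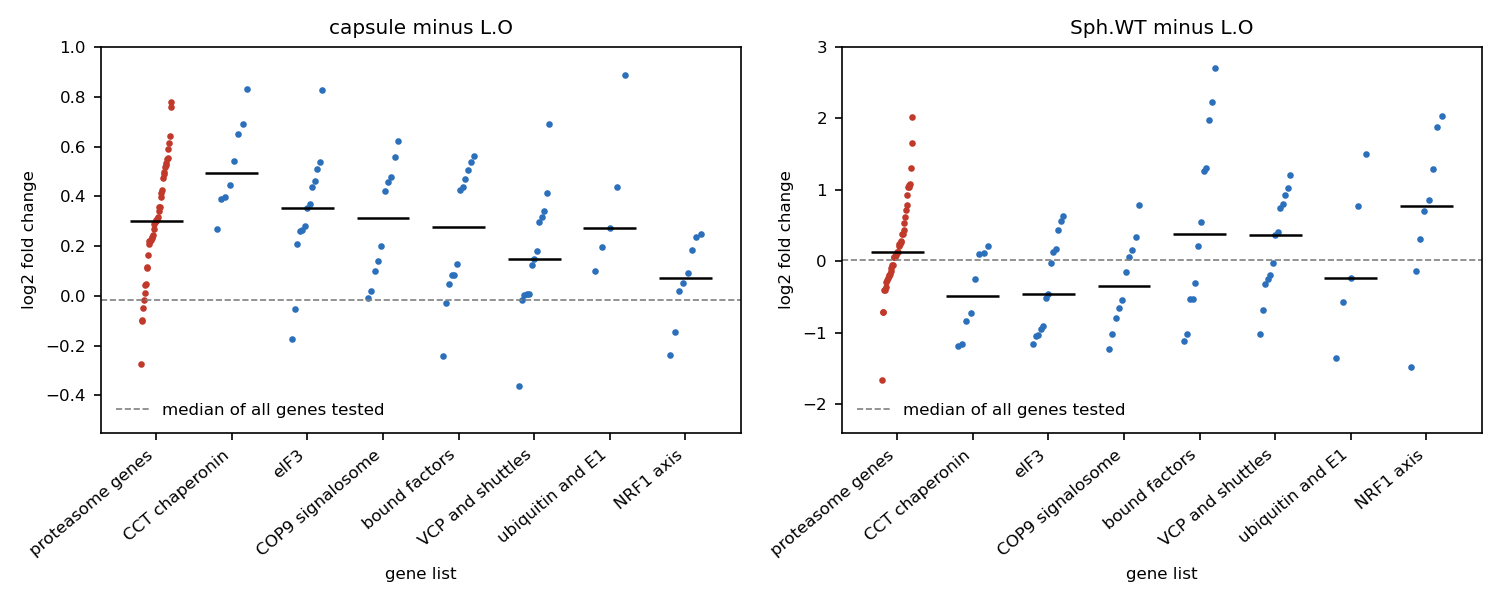
Log2 fold changes of the genes of each list under TMM scaling, for capsule minus L.O (left) and Sph.WT minus L.O (right), with a black bar for the median of each list and a dashed line for the median of all genes tested; PSMD5 lies above the right axis at 6.40. PSMB8 and PSMB9 are not drawn. On the left the median of each of the 8 lists drawn is above the dashed line, and on the right the CCT, eIF3, COP9 and ubiquitin medians are below it while the proteasome median is at 0.14, a value that turns to -0.33 under library totals.

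PSMB8 and PSMB9, left out of the 44, had 0 to 3 and 1 to 8 reads in any capsule or L.O library and 275 to 440 and 169 to 270 reads in the Sph.WT libraries. PSMB10, PSME1 and PSME2, the interferon-inducible genes among the 44, were likewise highest in the Sph.WT libraries under TMM. Under library totals PSME2 was not called for Sph.WT minus L.O (0.08, adjusted p = 0.404), nor PSMB10 for capsule minus Sph.WT (-0.16, adjusted p = 0.134).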

How the data were processed

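RNA-seq of 9 samples was used. The authors deposited raw read counts for 17911 genes with Entrez identifiers, without normalization; of these rows, 237 lack a symbol and were kept in library sizes and tests. The submitters' processing notes name hg38, featureCounts and limma, without roles or versions. Aligner, annotation and use of strand: not given in the sources used here.

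Columns were matched to groups by name, 3 to capsules and 6 to the spheroid group. Genes were filtered with filterByExpr (minimum count 10), scaled by TMM and tested with edgeR 4.0.16 (robust quasi-likelihood, R 4.3.3), with Benjamini-Hochberg adjustment over 16985 genes and a threshold of 0.05. Capsule against spheroid was 1 fit, and a model with the 3 column sets as levels gave the other contrasts. SE is the fold change divided by the root of F. The fits were tested on simulated data. Alternatives were DESeq2 1.42.0, limma 3.58.1 (voom), other scalings, no filter, a replicate block, 1 column set alone as spheroids and each library left out. Levels per kb used GENCODE 29 exons, found for all 44 genes, and promoters the RefSeq table. Other steps used Python 3.11.15, pandas 2.3.3 and scipy 1.17.1. Reads lack molecular identifiers, so counting error is a lower limit of the error.

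The members, lists and rules were chosen with earlier results of these data known. Any member could be named; from each list the rule took up to 4 genes called in capsule against spheroid, and other list genes were picked after their values were seen. From the lists, 2 genes are not reported here and were left out of the list counts, sums and medians. Every pair of libraries within a set differed beyond counting noise, in 1203 to 5055 genes, so none was counted as a repeat.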

Additional observations from a re-analysis of the deposited data

How the results depend on the processing

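For capsule against the 6 spheroid columns, 597 genes were called, 4 of them members, all higher. Library totals gave 313 genes and 0 members, DESeq2 4023 genes with 15 members higher and 1 lower, and the replicate block 0 genes and 0 members (2722 genes at an unadjusted p under 0.05, 12 of them members). Against the L.O columns alone 8011 genes and 32 members higher were called, and against Sph.WT alone 13921 genes, 24 members higher and 12 lower. The share of calls that were higher, 61.8% by TMM, was 25.2% under library totals, 30.2% with DESeq2 and 72.3% with limma-voom. Among members called in either fit, PSMA1 (0.352), PSMA6 (0.549), PSMB10 (0.587) and PSMC2 (0.422) changed sign against L.O alone. Against Sph.WT alone PSMC6 (-0.271) and PSMD14 (-0.224) did so. Under library totals, 19 members were higher and 3 lower for capsule minus L.O, and 31 were higher and 7 lower for capsule minus Sph.WT. For Sph.WT minus L.O, 11 were higher and 27 lower, and the median of the members turned to -0.328. The shares of calls over all genes that were higher moved from 49.7%, 50.6% and 50.4% to 27.8%, 60.3% and 36.1% in the same order. Among members called under TMM or library totals, those that changed sign between these scalings were as follows. For capsule minus Sph.WT they were PSMC6 (0.0056), PSMD1 (0.226), PSMD11 (0.251), PSMD12 (0.177), PSMD13 (0.226), PSMD14 (0.0524) and PSMF1 (0.0491). For Sph.WT minus L.O they were PSMA2 (-0.219), PSMA5 (-0.194), PSMB1 (-0.181), PSMB2 (-0.407), PSMC3 (-0.375), PSMD7 (-0.405), PSMD9 (-0.367), PSMD11 (-0.0824), PSMD12 (-0.0235), PSMD13 (-0.0751), PSME3 (-0.399), PSME4 (-0.327), PSMF1 (-0.248) and PSMG1 (-0.329). The cause of these changes was not tested. With each library left out in turn, genes called ran from 0 to 545 for capsule minus spheroid, 6369 to 8003 for capsule minus L.O, 13386 to 14379 for capsule minus Sph.WT and 13520 to 14756 for Sph.WT minus L.O; members higher ran from 0 to 2, 26 to 32, 18 to 24 and 20 to 22, and members lower were 0, 0, 12 to 14 and 8 to 12. Of the calls, 0 of 4, 25 of 31, 29 of 35 and 27 of 31 held in every such fit. Where a library left out leaves the capsules, L.O or Sph.WT with 2, the spread comes from the pooled fit. Over all alternatives, 2499 member values kept their side of the threshold, and those called also kept their direction. A call was lost in 97 and gained in 105 without a change of sign, and 27 changed sign with a call in either fit. Values called in neither fit count as kept whatever their sign. Same-numbered libraries did not deviate together more than others (correlation across genes of deviations from the set means, -0.385 to 0.198 over 9 pairs, against -0.401 to 0.383 over 18 pairs with other numbers). Deviations within a set of 3 libraries sum to 0, so this check cannot exclude that same-numbered libraries were prepared together. With the block 30 members were higher for capsule minus L.O. Of the 10 highest genes per kb, 5, 6 and 5 remained among the 10 highest without division by length, in capsule, L.O and Sph.WT. Depth limits PSMD5, PSMB8 and PSMB9 in the capsule and L.O libraries, where few reads were counted.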
